A study of Mus musculus with 20 samples.

Results

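The 20 livers of the series were divided into a high and a low group by their level of 3 genes of dividing cells, Top2a, Birc5 and Ccnb1. For each liver the log2 signals of the 3 genes, relative to the 75th percentile of its own array, were averaged into a score, and the members were chosen by that score alone. The arrays came in 2 slide series of 10, told apart by their slide barcodes, and within each the 5 livers with the highest score formed the high group and the 5 with the lowest score the low group. All 20 livers belong to the split, 10 in each group. All mice were male C57BL/6J, an inbred laboratory strain, ate, once weaned, food that drew 60% of its energy from fat, and were 6 weeks old when the liver was taken. The labels call 10 of them responders, which are susceptible to obesity on this diet, and 10 non-responders, which resist it. No mouse on another diet was compared here, so both groups share the high-fat diet. The labels give no animal identifiers, litter or hour of sampling, and a p-value measures the spread between these samples.

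Top2a encodes topoisomerase II alpha, which untangles sister chromatids, Birc5 encodes survivin, a subunit of the chromosomal passenger complex, and Ccnb1 encodes cyclin B1, which activates CDK1 at entry into mitosis. Genes of this kind are transcribed late in the cell cycle, in G2 and mitosis, largely under control of the transcription factors B-MYB and FOXM1 and of the DREAM complex, which keeps them silent in resting cells. Hepatocytes of a young mouse still divide while the liver grows and few do so in the adult, and resident macrophages, lymphocytes and blood precursors in the organ can divide as well. An array of whole liver reads the sum over all of these cells, so that more dividing cells and more mitotic RNA per cell cannot be told apart.

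The promoters of the score genes are shown because many late cell cycle promoters carry 2 short elements, the CHR element, searched as TTTGAA or TTCGAA, and the CCAAT box, searched as CCAAT. RefSeq sequence of build GRCm38.p6 was used, and both strands were read over windows from 250 bases before to 50 bases after each start site. The last 150 bases before the start are printed on the gene's own strand, with both elements in capitals, and the promoters of 3 further genes that differed between the groups follow those of the score genes. The windows are chr11:99024190-99024339, minus strand for Top2a, chr11:117849087-117849236, plus strand for Birc5, chr13:100786487-100786636, minus strand for Ccnb1, chr7:135716380-135716529, minus strand for Mki67, chr2:113848662-113848811, minus strand for Arhgap11a and chr19:6084947-6085096, plus strand for Cdca5.
Top2a: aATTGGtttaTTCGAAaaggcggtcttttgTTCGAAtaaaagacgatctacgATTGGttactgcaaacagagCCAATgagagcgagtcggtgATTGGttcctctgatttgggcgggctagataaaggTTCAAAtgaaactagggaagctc
Birc5: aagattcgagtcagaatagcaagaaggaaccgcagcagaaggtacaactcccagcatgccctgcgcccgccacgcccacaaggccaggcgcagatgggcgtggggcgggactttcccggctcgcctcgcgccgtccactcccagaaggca
Ccnb1: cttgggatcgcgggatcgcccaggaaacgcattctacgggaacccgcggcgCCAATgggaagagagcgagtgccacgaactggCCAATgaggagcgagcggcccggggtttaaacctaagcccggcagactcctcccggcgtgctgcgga
Mki67: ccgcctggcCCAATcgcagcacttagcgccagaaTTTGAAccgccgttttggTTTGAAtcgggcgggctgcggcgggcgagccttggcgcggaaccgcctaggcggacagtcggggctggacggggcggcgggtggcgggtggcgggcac
Arhgap11a: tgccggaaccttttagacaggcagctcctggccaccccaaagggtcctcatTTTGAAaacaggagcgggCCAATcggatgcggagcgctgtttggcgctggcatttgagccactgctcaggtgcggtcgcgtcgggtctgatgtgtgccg
Cdca5: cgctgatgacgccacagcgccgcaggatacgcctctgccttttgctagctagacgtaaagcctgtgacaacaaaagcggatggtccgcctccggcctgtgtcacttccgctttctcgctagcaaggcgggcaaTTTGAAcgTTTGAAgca
The full Top2a window held 4 CHR words and 6 CCAAT boxes, the Ccnb1 window held 2 CCAAT boxes and no CHR word, and the Birc5 window held neither. Cdca5 had a pair of CHR words, at 17 and 9 bases before the start, and Arhgap11a had a CHR word that began 99 bases before it and a CCAAT box at 81. Of the 15 rows that passed the test described further on, 12 have a promoter entry, and a CHR word was found in 9 of these 12 genes, against 16.9% of the 11302 tested genes with an entry. The 3 further genes printed above all have one before the start and do not stand for the 12. Sapcd2, Cenpe and D17H6S56E-5 have none, and those of Knl1, Cenpf and Eme1 lie after the start. A CCAAT box was found in 7 of the 12, against 42.4%, and both elements in 6, against 8.17%. An E2F element, searched as TTTCCCGC or TTTGGCGC, was found in 2 of the 12, against 3.06%. These are matches of letters in a fixed window and were not tested as binding sites.

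The score genes set the split, so their values describe it and carry no test. Top2a lay between -4.89 and -3.57 with a median of -4.18 in the high group, and between -5.79 and -4.63 with a median of -5.28 in the low group, in log2 units relative to the array's 75th percentile. Birc5 lay between 0.07 and 1.69 (median 0.59) in the high group and between -0.43 and 0.50 (median 0.04) in the low group. Ccnb1 lay between -6.24 and -2.81 (median -4.49) in the high group and between -7.02 and -5.40 (median -6.47) in the low group. The groups overlap for each gene when taken alone. Birc5 was the only score gene whose probe was well above background on all 20 arrays, while the Top2a probe was so on 9 high and 4 low arrays and the Ccnb1 probe on 8 high and 2 low arrays. Ccnb1 spanned 4.20 log2 units over the arrays, against 2.23 for Top2a and 2.12 for Birc5, so it weighed most in the score. By the array's own annotation, on build mm9, the Top2a probe covers chr11:98857244-98858058, the Birc5 probe chr11:117716959-117717018 and the Ccnb1 probe chr13:101549634-101549693. Their place within the transcripts was not analysed here.

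The score was highest in non-responder 6 of the first slide series, at -1.76, followed by non-responder 4 at -2.29, responder 3 at -2.32, non-responder 5 at -2.89 and responder 1 at -3.15. In the low group of that series it was -3.68 in responder 2, -3.98 in non-responder 1, -4.07 in non-responder 2, -4.10 in non-responder 3 and -4.17 in responder 10. In the second series the high group held non-responder 8 at -1.94, non-responder 10 at -2.07, responder 8 at -3.16, responder 6 at -3.35 and non-responder 9 at -3.40. Its low group held responder 5 at -3.50, responder 7 at -3.56, responder 4 at -3.73, responder 9 at -3.95 and non-responder 7 at -3.99. In the second series non-responders 8 and 10 stood well above the other livers, and its cut fell among livers with close scores, with non-responder 9 just inside and responder 5 just outside the high group. The 5 highest scores of all came from 4 non-responders and 1 responder.

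**Figure D1:**
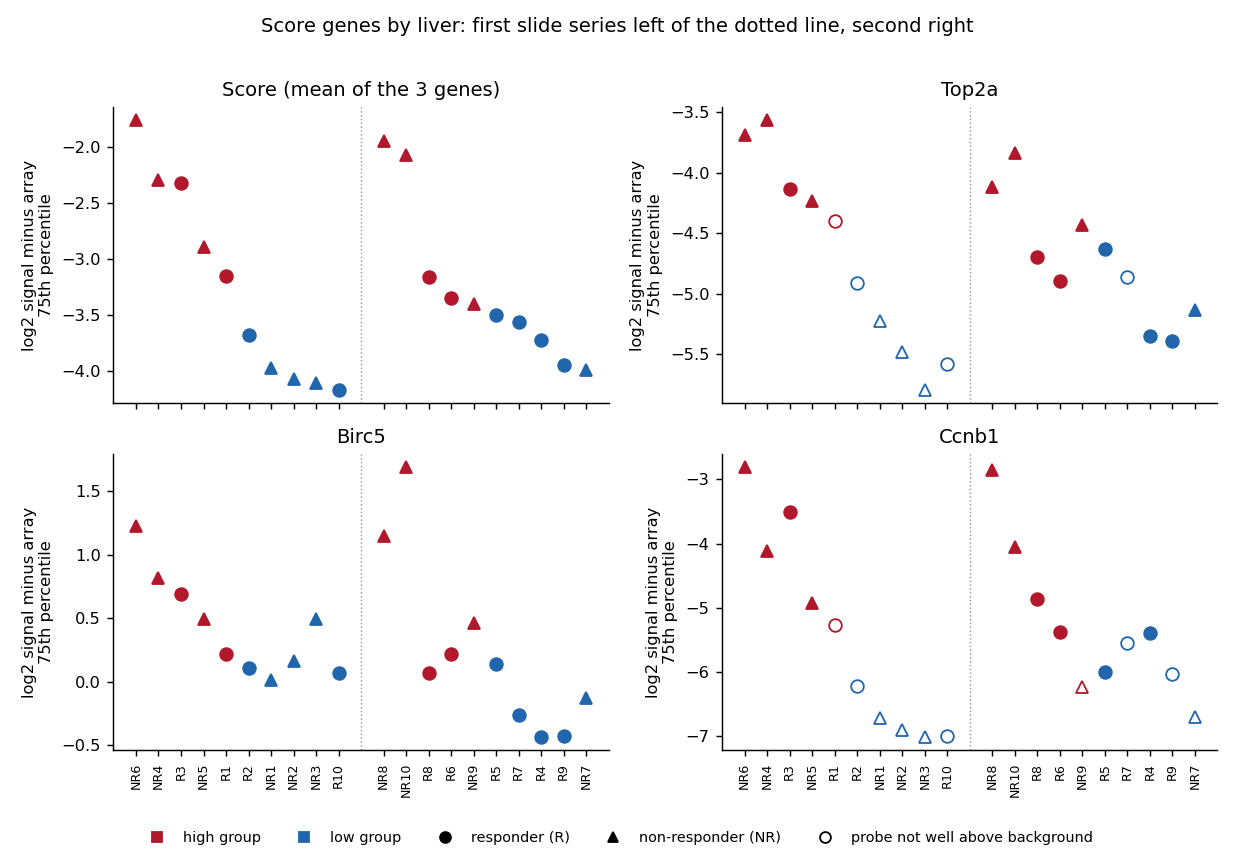
Score and its 3 genes in each liver, as log2 signal minus the array's 75th percentile, with livers in order of score within the first and the second slide series. Red points are the high group and blue the low group, circles are responders and triangles non-responders, and open points mark a probe not well above background. The score steps down from -1.76 to -4.17 on the left and from -1.94 to -3.99 on the right.

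Away from the score genes, the rows that passed as higher in the high group included Cdkn3, Prc1, Cenpf, Cenpe and Mki67, all genes of dividing cells, and no gene passed the test as lower. The groups were compared with limma over 17205 genes and unnamed probes, all but the score genes, with slide series as a term and Benjamini-Hochberg adjustment at 0.05. This gave 15 calls, 0.0872% of the rows, all higher in the high group, with a positive sign in either slide series. At an unadjusted p under 0.05 there were 1475 rows (8.57%), of which 947 were higher (5.5%) and 528 lower (3.07%), and 0 rows passed the adjusted limma threshold as lower. Across all rows the median difference was 0.00435 and 51.5% lay above 0, which the scaling of each array to its own 75th percentile largely sets. As the groups were made from the same arrays, these p-values say how closely a gene tracked the split, not that 2 separately sampled kinds of liver differ. The calls are few and depend on single livers, as between 5 and 48 rows passed when each array was left out in turn. The count was 48 without responder 6, 26 without responder 1, 9 without non-responder 2, 6 or 7 or responder 10, 7 without non-responder 8, and 5 without non-responder 1, 4 or 10 or responder 2, 3, 4 or 5. Every one of the 15 called rows kept its positive sign when macrophage markers were added to the fit, although 0 then passed.

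Among regulators of entry into and exit from mitosis, Pbk and Cdkn3 passed the test. Pbk, which encodes a mitotic kinase, lay between -4.84 and -2.93 (median -3.78) in the high group and between -6.27 and -4.80 (median -5.44) in the low group. Its difference was 1.68 (SE 0.25, limma adjusted p = 0.0131, n = 10 each), with 1.71 among arrays of the first slide series and 1.64 among the others. All 10 high livers lay above the mean of the low group of their series, but the probe was well above background on 8 high arrays and only 1 low array. Pbk thus passed the filter mainly through the high group, and the size of its difference rests on low values that were mostly not above background. Cdkn3, which encodes a phosphatase that acts on cyclin-dependent kinases, was measured on every array and lay between -2.84 and -0.62 (median -1.98) in the high group and between -4.23 and -2.75 (median -3.40) in the low group. Its difference was 1.67 (SE 0.28, limma adjusted p = 0.0227). The groups met only at their edges for both genes.

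The list of mitotic entry and exit genes had 33 members besides the score genes, of which 28 were measured and 2 passed the test. With these 2 included, 16 were higher at an unadjusted p under 0.05 and none was lower, with a median difference of 0.46. Cdc20, an activator of the anaphase-promoting complex, differed by 1.46 (SE 0.32, limma adjusted p = 0.087), and Plk1, a kinase that drives mitotic entry, by 1.17 (SE 0.24, limma adjusted p = 0.0648). Ccnb2, the second B-type cyclin, differed by 1.04 and Cdk1, the kinase bound by cyclin B, by 1.00, and neither passed the adjusted threshold. Foxm1, the transcription factor named above, differed by 1.01 (SE 0.22, limma adjusted p = 0.107). Mybl2, which encodes B-MYB, lay between -3.78 and -3.10 in the high group and between -3.79 and -3.06 in the low group, a difference of 0.02 (SE 0.09) whose 95% interval ran from -0.17 to 0.22. That interval lies below the Foxm1 difference, although its sign turned with 2 other settings and when single arrays were left out.

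The spindle and cytokinesis genes had the largest median difference of the 6 cell cycle lists. Of 37 list members 25 were measured, all 25 were higher in the high group, 2 passed the test and 22, those 2 included, had an unadjusted p under 0.05, with a median difference of 0.75. Prc1, which bundles the microtubules of the central spindle, lay between -1.97 and -0.22 (median -1.08) in the high group and between -3.09 and -2.14 (median -2.42) in the low group. It differed by 1.28 (SE 0.20, limma adjusted p = 0.0165), and within each slide series no high liver fell as low as any low liver. Arhgap11a, a GTPase-activating protein, differed by 0.70 (SE 0.12, limma adjusted p = 0.0227). Racgap1, a subunit of the centralspindlin complex, differed by 1.94 in the first series but 0.56 in the other, and did not pass (1.25, SE 0.25, limma adjusted p = 0.0648).

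At the kinetochore, the structure that holds chromosomes to the spindle, 3 of 20 measured genes passed, of 22 in the list. Knl1, the scaffold of the outer kinetochore, lay between -5.64 and -4.04 (median -4.91) in the high group and between -6.62 and -5.78 (median -6.17) in the low group, with no overlap. It differed by 1.34 (SE 0.21, limma adjusted p = 0.0131), but only 7 high arrays and 1 low array read it well above background, so it too passed the filter mainly through the high group, and the size of the difference and the lack of overlap rest on dim low values. Cenpf differed by 1.37 (SE 0.24, limma adjusted p = 0.0238) and Cenpe, a kinesin that moves chromosomes to the spindle equator, by 1.12 (SE 0.21, limma adjusted p = 0.0409). In the same list, 16 of the 20 measured genes had values above 0 and 4 below. The list's median was 0.23, and 9 of its 20 measured genes were higher at an unadjusted p under 0.05.

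Of the condensin and mitotic chromatin genes, Mki67, whose product Ki-67 coats mitotic chromosomes and is the usual stain for cycling cells, was the only one to pass. Its signal lay between -1.12 and 0.24 (median -0.42) in the high group and between -1.98 and -0.91 (median -1.33) in the low group, well above background on all arrays. The difference was 1.03 (SE 0.18, limma adjusted p = 0.0227), a 2.04-fold higher signal. All 10 high livers lay above the low mean of their series, while the ranges overlapped at one end. Ncapg, a condensin subunit, differed by 1.11 (SE 0.25, limma adjusted p = 0.108), and the median over the 17 genes was 0.20.

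Over these 4 mitotic lists together, 8 of the 90 measured genes passed, against 0.0872% of all rows, 57 were higher at an unadjusted p under 0.05, against 5.5%, and none was lower at that level. The median difference was 0.53, against 0.00435 over all rows. The lists hold 109 genes besides the score genes, and the others did not pass the filter on dim probes. Of the 90 measured, 11 were well above background on fewer than 5 low arrays, so their passing the filter rested on the livers in which they were high. Without the filter all 109 could be read, and 66 had an unadjusted p under 0.05 and were higher, with a median of 0.54. Among the 58 genes read well above background on all 20 arrays, 31 were higher at an unadjusted p under 0.05 and 4 passed, with a median of 0.26. That requirement drops genes that are dim in the low group, so the smaller median follows in part from the choice. The lists were compiled with results of these data known, and the counts are a description.

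**Figure D2:**
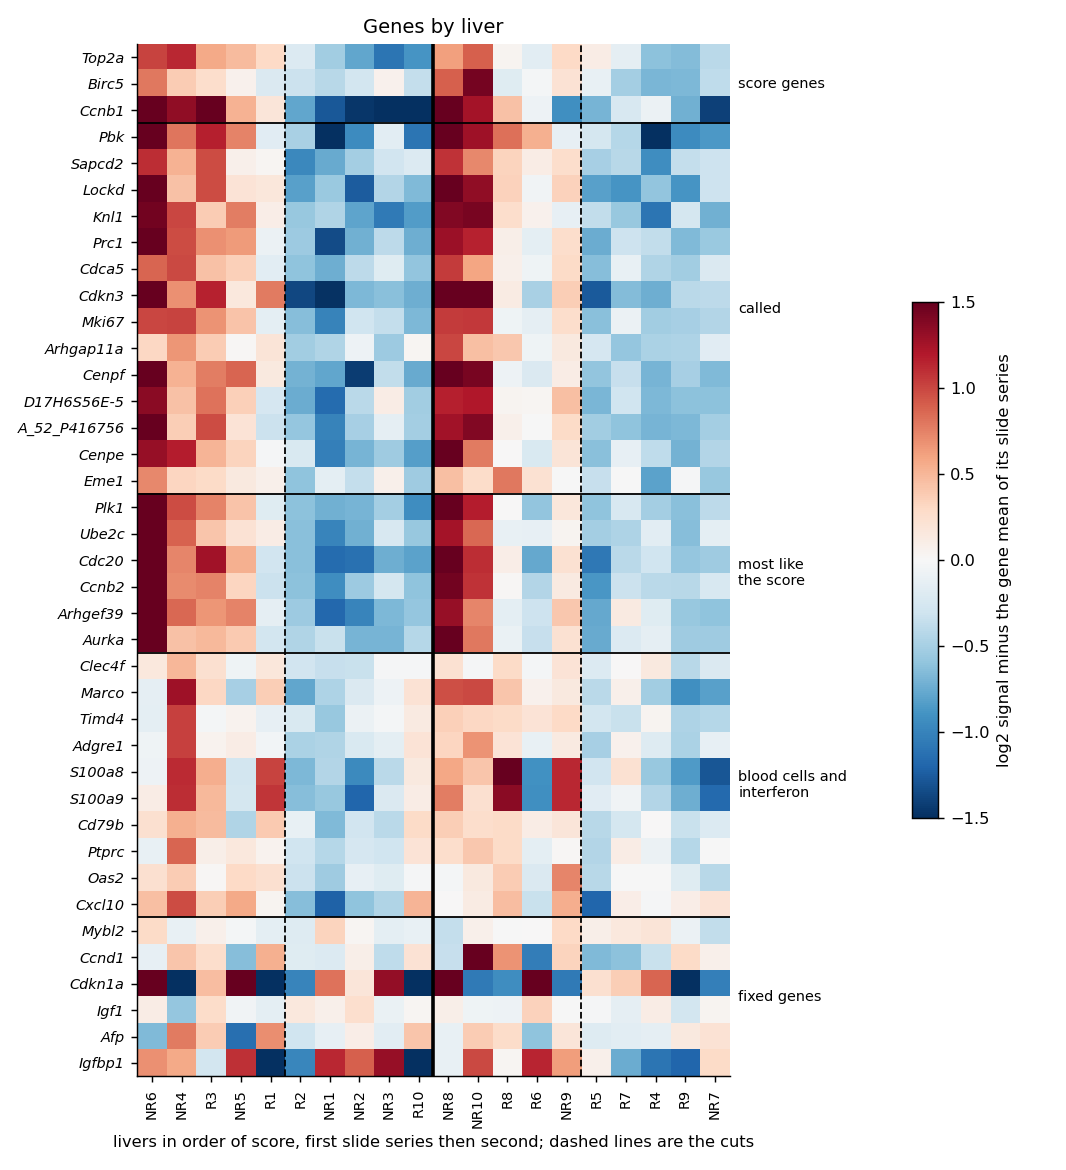
Log2 signal of single genes in each liver, after subtraction of the gene's mean in its slide series, with livers in order of score and colours cut at 1.5 in either direction. From top to bottom are the score genes, 14 of the rows that passed the test, 6 further genes most like the score, 10 markers of blood cells and interferon response, and 6 genes chosen whatever their values. The cell cycle genes step down with the score, while Mybl2, in the last block, differs by 0.02 between the groups.

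Genes of earlier phases of the cell cycle were described by 2 lists, and the difference between these and the mitotic lists was not tested. Of 49 measured DNA replication genes, 1 passed, with a median of 0.13. At an unadjusted p under 0.05, 9 were higher, against 5.5% of all rows, and none was lower, against 3.07%. Without responder 5 or non-responder 8 the 9 became 5, with medians of 0.089 and 0.109, and without responder 6 they became 12, with a median of 0.165. The MCM helicase subunits Mcm2, Mcm5 and Mcm6 differed by 0.30, 0.39 and 0.32, whereas Pcna, the sliding clamp of the replication fork, differed by -0.03, and Rrm2, a subunit of ribonucleotide reductase, by -0.05. Rrm1, a subunit of the same enzyme, differed by 0.18 and did not pass. In the fit on the score itself, described below, Rrm1 rose by 0.16 per unit (SE 0.04, limma adjusted p = 0.0358). Of 27 genes of G1 and E2F control, 0 passed in limma and the median was 0.04. At an unadjusted p under 0.05, 2 were higher (7.41%, near the 5.5% of all rows) and 2 lower. Without non-responder 1 or 2, 1 gene was higher at that level, and without responder 6, 3 genes were. Rbl1, which encodes the pocket protein p107, differed by 0.39 (SE 0.14) and Rbl2, which encodes p130, by -0.21 (SE 0.08), with limma adjusted p-values of 0.408 and 0.456. The growth-induced factor Myc lay between -1.58 and 0.23 in the high group and between -1.53 and 2.16 in the low group, a difference of -1.15 (SE 0.45, limma adjusted p = 0.471). Ccnd1, the G1 cyclin that growth factors induce, differed by 0.34 (SE 0.25, limma adjusted p = 0.714). Of 25 CDK inhibitors and p53 targets, 0 passed in limma, with a median of 0.00. At an unadjusted p under 0.05, 2 were higher (8%, near the 5.5% of all rows) and 1 lower. Cdkn1a, which encodes the inhibitor p21, ranged from -2.37 to 2.51 in the high group and from -3.11 to 1.14 in the low group, a difference of 0.51 (SE 0.71).

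Of the 15 called rows, 6 lay outside the cell cycle lists, among them 4 with a usual gene name. Lockd, a long noncoding RNA encoded next to Cdkn1b, lay between -2.96 and -0.82 (median -2.43) in the high group and between -4.01 and -3.20 (median -3.54) in the low group. It differed by 1.44 (SE 0.22, limma adjusted p = 0.0131), with similar values of 1.49 and 1.39 in the 2 slide series. Sapcd2 differed by 1.05 (SE 0.16, limma adjusted p = 0.0131) and Cdca5, which encodes sororin, a protector of sister chromatid cohesion, by 0.89 (SE 0.15, limma adjusted p = 0.0227). For these 3 genes no high liver fell to the level of a low liver of its series. Such a lack of overlap in both series occurred for 8 rows in the direction of higher, 0.0465% of all rows, and for 0 rows in the other direction, and 6 of the 15 calls were among the 8. Eme1, a subunit of a structure-specific endonuclease that resolves joint DNA molecules, differed by 0.66 (SE 0.13, limma adjusted p = 0.0445) but was well above background on 8 high and 3 low arrays. The remaining calls were the gene listed as D17H6S56E-5, with 1.12 (SE 0.20), and an unnamed probe, with 1.15 (SE 0.21).

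The genes whose values followed the score most closely over the 20 livers were mostly members of the cell cycle lists, with Lockd and Arhgef39 from outside them. After centring within slide series, Pearson's r with the score was 0.96 for Plk1, 0.95 for Cenpe, Knl1 and Prc1, 0.94 for Cenpf, 0.93 for Ube2c, Mki67 and Cdc20, 0.92 for Lockd, Ccnb2 and Arhgef39, and 0.91 for Aurka. Mybl2 had r = 0.06. All of these points share the same arrays, and the coefficients are descriptions. When the score itself replaced the groups in the limma fit, 81 rows rose with it (0.471%) and 18 fell (0.105%), the 15 calls of the groups among the rising ones. Of the 90 measured genes of the 4 mitotic lists, 39 rose, 17 of them among the 25 spindle and cytokinesis genes. The falling rows were chosen for mention after their values were seen: Dio1, the deiodinase that activates thyroid hormone, fell by 0.30 per unit of score (SE 0.06, limma adjusted p = 0.0308), Hhex, a homeobox factor of liver development, fell by 0.81 (SE 0.18, limma adjusted p = 0.0345), and Serpine2, a protease inhibitor, fell by 0.63 (SE 0.12, limma adjusted p = 0.0115). Between the groups these 3 genes differed by -0.38, -0.79 and -0.79 and did not pass.

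**Figure D3:**
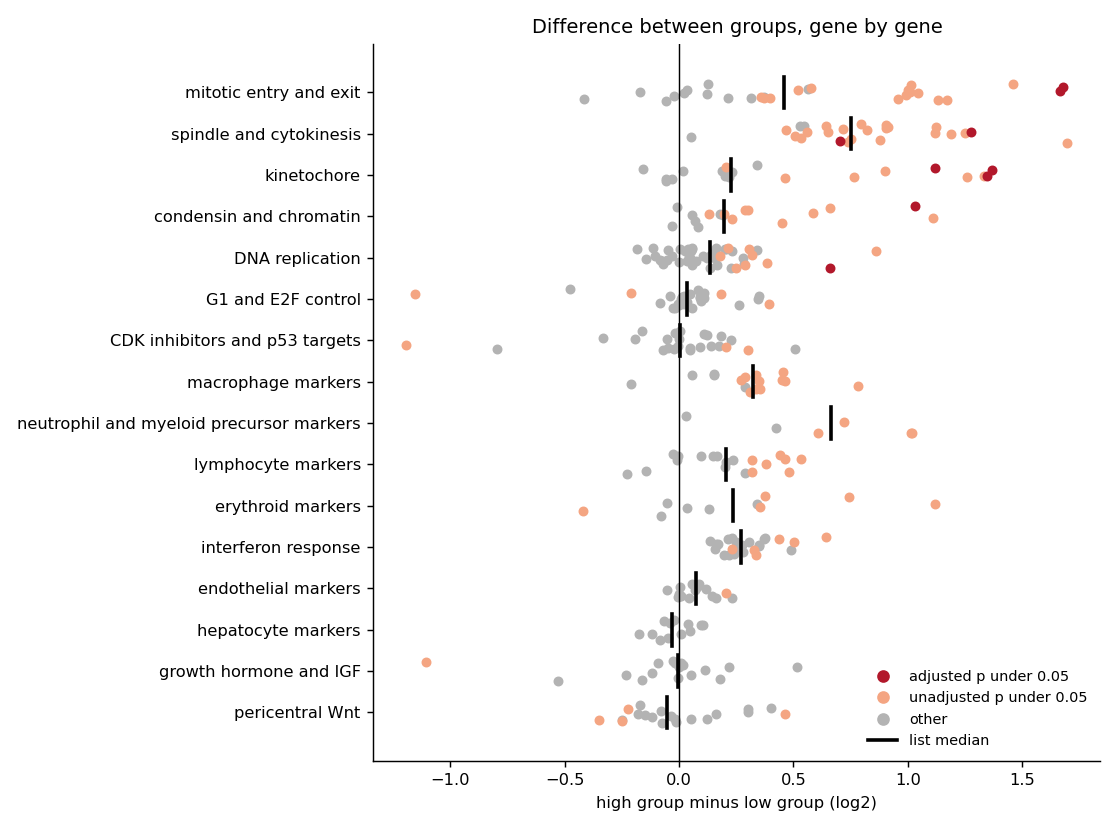
Difference between the high and the low group for each measured gene of 16 lists, on the log2 scale, with a bar at each list's median. Dark red points passed the adjusted threshold, orange points had an unadjusted p under 0.05, and grey points neither. The medians lie at 0.75 for spindle and cytokinesis, 0.46 for mitotic entry and exit, 0.32 for macrophage markers and -0.03 for hepatocyte markers.

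Most measured markers of macrophages, neutrophils and lymphocytes were higher in the high group, while erythroid markers were mixed, and none passed the adjusted test. Of 17 macrophage markers 16 were measured, 15 were higher in the high group and 11 had an unadjusted p under 0.05, against 5.5% of all rows, with 0 lower at that level and a median difference of 0.32. The list's mean level ran from 1.53 to 2.44 in the high group and from 1.05 to 1.85 in the low group, and all of its measured markers but Ccr2 and Cx3cr1 were well above background on every array. Marco, a scavenger receptor, lay between 2.89 and 4.66 (median 3.64) in the high group and between 2.25 and 3.60 (median 2.85) in the low group, a difference of 0.78 (SE 0.21, limma adjusted p = 0.230). Clec4f, a lectin of Kupffer cells, differed by 0.33 (SE 0.08, limma adjusted p = 0.172), and all 10 high livers lay above the low mean of their series. The highest macrophage mean, 2.44, belonged to non-responder 4, which is in the high group, and without it 9 of the 16 markers had an unadjusted p under 0.05 with a median of 0.24. Non-responder 6, with the highest score of all, had a macrophage mean of 1.53, the lowest of the high group.

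Among neutrophil and myeloid precursor markers 6 of 14 were measured, 4 had an unadjusted p under 0.05 and were higher, and the median was 0.66. For this list and the next 2, the shares over all rows at that level were 5.5% higher and 3.07% lower. S100a9, a calcium-binding protein abundant in neutrophils, lay between -0.06 and 2.22 (median 1.48) in the high group and between -0.36 and 0.94 (median 0.34) in the low group, a difference of 1.02 (SE 0.26, limma adjusted p = 0.198). S100a8, its partner, differed by 1.02 as well, and Mpo, the peroxidase of neutrophil granules, by 0.61. The mean of the list ran from -3.24 to -1.36 in the high group and from -3.41 to -2.41 in the low group. Of 19 measured lymphocyte markers 14 were higher and 5 lower, and 7 were higher at an unadjusted p under 0.05. Their median was 0.21, with list means from -2.63 to -1.76 in the high group and from -3.01 to -2.21 in the low group. The B cell receptor component Cd79b differed by 0.48 (SE 0.12) and Ptprc, which encodes the pan-leukocyte antigen CD45, by 0.38 (SE 0.12), with limma adjusted p-values of 0.172 and 0.359. Of 10 measured erythroid markers, 7 were higher and 3 lower, with 4 higher and 1 lower at an unadjusted p under 0.05. Ahsp, the chaperone of alpha globin, differed by 1.12 (SE 0.40) and Klf1, a transcription factor of red cell precursors, by -0.42 (SE 0.12). The erythroid list means ran from 1.26 to 1.96 in the high group and from 0.82 to 1.77 in the low group. The groups overlapped for each of these 3 list means.

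All 26 interferon response genes were higher in the high group, 6 of them at an unadjusted p under 0.05, against 5.5% of all rows, with a median of 0.27. When single arrays were left out the 6 became 5 to 11. The median ran from 0.21 without non-responder 9 to 0.35 without responder 6. The first slide series had a median of 0.44 and the other 0.09. Oas2, an antiviral nucleotide synthetase, differed by 0.44 (SE 0.10, limma adjusted p = 0.141) and Cxcl10, an interferon-induced chemokine, by 0.64 (SE 0.22, limma adjusted p = 0.384). The list mean ran from 1.02 to 2.20 in the high group and from 0.80 to 1.69 in the low group.

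With the macrophage mean added to the fit, chosen after the data were seen, the 15 called rows kept differences with a median of 1.06, against 1.12 without it, and all 15 still had an unadjusted p under 0.05. Their adjusted p-values then lay between 0.209 and 0.573, so that 0 rows passed in limma. Unadjusted p-values under 0.05 were found for 20 of 25 spindle genes in place of 22, for 15 of 28 mitotic entry and exit genes in place of 16, for 8 of 20 kinetochore genes in place of 9 and for 5 of 17 condensin genes in place of 10. For DNA replication they were found for 1 of 49 genes in place of 9, and the median of that list went from 0.13 to -0.03. With the interferon mean in its place, 0 rows passed and the 15 differences had a median of 1.11. The part of macrophages or other blood cells in the remaining differences was not tested.

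**Figure D4:**
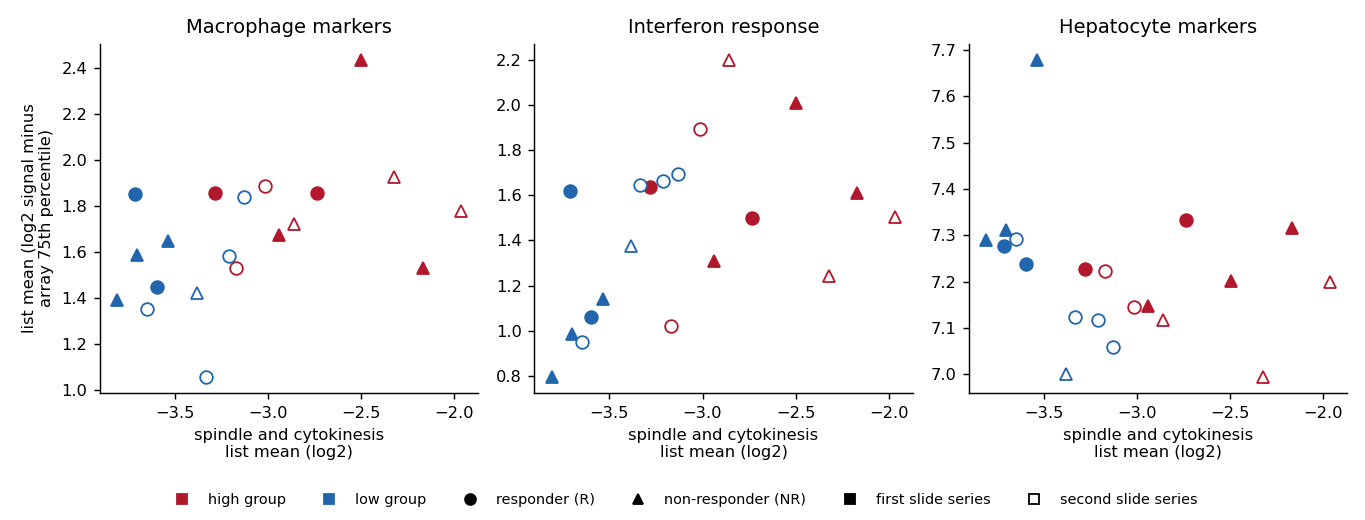
Mean level of macrophage markers, interferon response genes and hepatocyte markers in each liver against the mean of the spindle and cytokinesis list, all as log2 signal minus the array's 75th percentile. Red points are the high group and blue the low group, triangles are non-responders, and open points are the second slide series. Macrophage means reach 2.44 in the high group and 1.85 in the low group, and hepatocyte means overlap except for non-responder 3 of the low group, at 7.68.

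Hepatocyte markers and 3 lists tied to liver growth had medians near 0. Of 12 measured hepatocyte markers 0 had an unadjusted p under 0.05 or passed in limma, and the median was -0.03, with list means from 6.99 to 7.33 in the high group and from 7.001 to 7.68 in the low group, so the tissue read as liver in both groups. The medians of growth hormone and IGF genes, of fetal and imprinted growth genes and of YAP targets, 3 groups tied to liver growth, were -0.01, -0.01 and -0.02. Igf1, the circulating growth factor made by hepatocytes, differed by -0.02 (SE 0.10), with a 95% interval from -0.22 to 0.18. Afp, the fetal serum protein, differed by 0.04 (SE 0.21) and Igfbp1, a binding protein of IGF1, by 0.52 (SE 0.47). Cish, a target of growth hormone signalling through STAT5, lay between -0.23 and 3.54 in the high group and between 0.81 and 4.14 in the low group, a difference of -1.11 (SE 0.47, limma adjusted p = 0.524). Of 20 pericentral Wnt genes, 1 was higher and 3 lower at an unadjusted p under 0.05, against 5.5% and 3.07% of all rows. Among the lower ones was Cyp1a2, a cytochrome of the central vein zone, with -0.35 (SE 0.11, limma adjusted p = 0.347). Of the lower genes with the same sign in both series, Ces2a, a carboxylesterase, differed by -0.26 (SE 0.06, limma adjusted p = 0.164), and Sord, sorbitol dehydrogenase, by -0.34 (SE 0.09, limma adjusted p = 0.193). In both genes the groups overlapped, with 0 and 1 of the 10 high livers above the low mean of their series.

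The split was then crossed with the responder label. The high group held 4 responders and 6 non-responders and the low group 6 responders and 4 non-responders. In the first slide series both groups held 2 responders and 3 non-responders, and in the second the high group held 2 and 3 and the low group 4 and 1. The two-sided exact permutation test of the labels within slide series, over 44100 arrangements, gave p = 0.659. The score ran from -4.17 to -2.32 (median -3.53) in responders and from -4.10 to -1.76 (median -3.14) in non-responders.

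Responders and non-responders were also compared inside the split. The interaction of group and label gave 0 calls of 17205 rows in limma (smallest adjusted p = 0.734), with 1065 rows at an unadjusted p under 0.05 (6.19%). Mki67 averaged -0.81 in high responders and -0.09 in high non-responders, against -1.38 and -1.46 in low livers of the same labels, an interaction of -0.73 (SE 0.30, limma adjusted p = 0.792). Prc1 averaged -1.65 and -0.81 in the high group and -2.36 and -2.52 in the low group, an interaction of -1.04 (SE 0.34, limma adjusted p = 0.792). Both genes were thus lower in high responders than in high non-responders in this sample, and neither interaction passed. The scores of high responders ran from -3.35 to -2.32 and those of high non-responders from -3.40 to -1.76. Both genes followed the score closely, and how much of their difference by label goes with the score was not tested. The responder difference with group as a term gave 0 calls in limma (smallest adjusted p = 0.322, 1323 rows or 7.69% at an unadjusted p under 0.05), and without the group 0 calls as well (smallest adjusted p = 0.273, 1372 rows or 7.97%). The difference between groups was tested for a change between slide series, and 0 rows passed in limma (smallest adjusted p = 0.409, 1625 rows or 9.44% at an unadjusted p under 0.05).

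The arrays of the groups were alike in quality. Between 55.8% and 71.2% of spots were well above background on an array, with a median of 61.7% in the high group and 61.9% in the low group, and 0 spots were saturated. The 75th percentile of processed signal ran from 280.1 to 656.8 in the high group and from 282.4 to 627.9 in the low group. Pancreatic enzyme genes, which some liver samples carry, had a mean above 0 in 4 high and 6 low livers, and with that mean as a covariate 19 rows passed.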

How the data were processed

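Each of the 20 liver samples was hybridised with Cy3-labelled cRNA to 1 single-colour Agilent array. The deposited scanner files hold spot intensity on a linear scale, background-subtracted and detrended by Agilent Feature Extraction, as release 10.5.1.1 per the file headers; the submitters' processing notes name 9.1. The authors also deposited a table of processed intensity, used as an alternative, whose scaling is not stated there. Values were analysed as log2 processed signal minus the array's 75th percentile, without control spots and outlier-flagged spots. A probe was kept if 5 or more arrays of one label read it well above background (26160 of 41174), with the brightest probe for each gene, which gave 17205 rows besides the score genes. Names came from the RefSeq table of GRCm38.p6, and probe positions are those of mm9. Fits used limma 3.58.1 in R 4.3.3 (lmFit, eBayes) on terms for the score group and the slide series, and the script was tested on simulated data. The 20 arrays lay on 13 slides, and their number limits the precision.

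The members and lists were chosen with earlier results of these data known. Genes were named by rule: the score genes, without test; up to 12 in each direction outside the cell cycle lists, by size of difference if they passed or otherwise by p, if both series had one sign; the leading genes of each list; the 12 most correlated with the score; and Foxm1, Mybl2, Mki67, Ccnd1, Cdkn1a, Igf1, Afp and Igfbp1. The 3 falling genes of the score fit, and list members cited for their small difference, were chosen after their values were seen. Alternatives covered background correction, scaling, deposited values, filters, probe choice, blocks, covariates, other definitions of the split and leaving out arrays. A gene that passed the test is not reported here by name.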

Additional observations from a re-analysis of the deposited data

Results flagged for a closer look

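In 16 of the 186 sets of 10 values examined, 1 liver stood apart from the other 9 of its group, by a gap to its nearest neighbour above Dixon's critical share of the range, which chance passes in about 1 of 20 sets. Values are log2 signal minus the array's 75th percentile.

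Of the cell cycle genes, Prc1 read -3.09 in non-responder 1 of the low group, with the nearest other low liver at -2.57, and Rbl1 read -3.86 in the same liver, against -2.96. The unnamed probe that passed the test read -2.49 there, against -2.08, and this liver also had the lowest means of the mitotic entry and exit list, -2.21 against -1.98, and of the kinetochore list, -3.32 against -3.01. Cenpf read -5.44 in non-responder 2, against -4.79. Ncapg was high for the low group in responder 7, at -2.35 against -3.55.

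Non-responder 4 of the high group stood above the others in the Kupffer cell gene Timd4, at 0.534 against -0.437, in Ptprc, at 1.08 against 0.364, and in the means of the lymphocyte list, -1.76 against -2.24, and of the macrophage list, 2.44 against 1.93. Cd79b was low for the high group in non-responder 5, at -0.71 against -0.111, and Ahsp was low for the low group in non-responder 7, at -7.25 against -4.80.

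The mean of the male pattern list, genes that male livers express more, was 4.0 in non-responder 10 of the high group, against 4.59. In the low group the endothelial mean was 1.05 in responder 9, against 1.45, and the hepatocyte mean was 7.68 in non-responder 3, against 7.31.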

How the results depend on the processing

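The count of 15 rows that differed between the groups was within 1.5 times of itself with quantile normalization, no filter on dim probes, the mean of all probes, no slide series term, slide as a random block (22), the responder label as a term, the pancreatic mean as a covariate and, chosen after seeing the data, the percent of spots above background as a covariate. It was 0 with normexp, 7 with the deposited values, 9 with probes above background on all arrays, 30 with array weights, 99 with the score as a continuous covariate, 115 with groups from the other mitotic genes, which exchanged responder 6 for responder 7, and 2 without the 4 arrays next to the cut. The mitotic genes that set the groups in the fit with 115 rows were themselves among the rows tested, so that count is a description. In the first and the second slide series alone it was 0. Of the alternatives chosen after seeing the data, another Ccnb1 probe gave the same groups as the other mitotic genes, and so the same 115 rows. With the macrophage or the interferon mean as a covariate, with groups from Birc5 alone, without the arrays with pancreatic means above 0 and without the 4 arrays with the highest score, 0 rows passed. All measured called rows stayed higher in the high group in each of these settings. Normexp left the lowest percentile of signal between 117 and 3468 on 6 arrays, 3 of them in the high group, against at most 61.5 on the others, and it brought the median of the called differences from 1.12 to 0.41. The causes of these changes were not tested. Leaving out each array in turn gave 5 to 48 rows: 48 without responder 6, 26 without responder 1, 9 without non-responder 2, 6 or 7 or responder 10, 7 without non-responder 8, and 5 without non-responder 1, 4 or 10 or responder 2, 3, 4 or 5.

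The labels do not say whether the numbers in the sample titles pair the samples. Same-numbered arrays correlated with r from -0.29 to 0.61 over 10 pairs, 8 of them over 0.1, and 1 of 10 responders correlated best with its own number. These values were centred within label but not within slide series, so they cannot separate pairing from a shared slide series. With the replicate block, 1 row differed between the groups, 0 in the interaction of group and label, and 1 by responder label with group as a term. Responders in the high group numbered 4 under each definition tried, and the interaction and the responder difference gave 0 calls in their other alternatives. Among named genes only Mybl2 turned in sign, to -0.0217 with normexp and -0.0041 with the replicate block, and it lay between -0.0219 and 0.0637 when single arrays were left out.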

Other observations

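Groups of liver metabolism had medians near that of all genes between the groups. The median difference was -0.01 over 28 PPAR alpha targets, -0.06 over 18 lipogenesis genes and -0.02 over 24 genes of cholesterol synthesis. Between the groups 0 of these genes passed in limma, with 1, 2 and 0 at an unadjusted p under 0.05, against 8.57% of all rows. In the fit on the score itself the lipogenesis gene Elovl5 rose by 0.42 per unit (SE 0.09, limma adjusted p = 0.0282). Between the groups Elovl5 differed by 0.51 and did not pass. The 20 acute phase genes had a median of 0.16, and 17 of them were higher in the high group, 1 at an unadjusted p under 0.05 (5%, near the 5.5% of all rows). The 16 core clock genes had a median of -0.56 among first-series livers and 0.06 among the others, and none had an unadjusted p under 0.05 over both. Against the score itself, 0 of the 16 clock genes passed in limma, where 0.471% of all rows rose and 0.105% fell. Their median change was -0.22 per unit of score. The 20 arrays and the dim signal of many mitotic probes limit what these counts can show.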
